A study of Homo sapiens with 4 samples.

Results

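The HOX cluster genes examined here were 38 homeobox genes of the HOXA, HOXB, HOXC and HOXD clusters (10, 10, 9 and 9 genes), taken by name from the 20033 protein-coding genes of GENCODE 44. The data were 4 lists of CUT&RUN peaks from HSSY II, an SS18::SSX1-positive synovial sarcoma line. In CUT&RUN an antibody directs a nuclease to the protein of interest, and the DNA fragments set free around it are sequenced. SS18::SSX and WDR5 were each profiled in cells kept for 4 days with DMSO, the mock treatment, or with 2.5 μM MS67, a PROTAC (a molecule that brings a target protein to an E3 ubiquitin ligase) directed at WDR5. Every sample held the same cell line plus murine NIH-3T3 cells, which carried a GFP-tagged histone, as a spike-in control. For SS18::SSX the paper describes an added anti-GFP antibody for that control, and for WDR5 the WDR5 antibody only. Each condition was 1 library. No difference therefore had a replicate check, no p-value was computed, and the intervals given are exact 95% intervals (Poisson for counts, Clopper-Pearson for shares) that cover counting error only. Peaks next to each other and genes with overlapping windows are not independent, which those intervals leave out. Peak lists carry no expression values, so the identity of the cells was not checked against marker genes.

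HOX genes encode transcription factors that bind DNA through a homeodomain and give cells their position along the body axis. Within a cluster the genes stand in the order in which they are used, from the head end (low group numbers) to the tail end and the limb tips (high numbers). The clusters are classical targets of Polycomb repressors and of the Trithorax group, which includes the KMT2/MLL methyltransferases for histone H3 lysine 4. WDR5 is a scaffold subunit of the KMT2/MLL complexes, and SS18::SSX is the fusion oncoprotein of synovial sarcoma, built into the SWI/SNF (BAF) chromatin remodeler.

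The clusters were taken from the first to the last listed gene in hg38. HOXA lay at chr7:27100354-27200091 (99738 bp) and HOXB at chr17:48528526-48728750 (200225 bp), both with their genes on the minus strand. HOXC lay at chr12:53938831-54056030 (117200 bp) and HOXD at chr2:176092721-176190907 (98187 bp), both with their genes on the plus strand. A gene’s window was its body plus 5 kb on each side, and a peak belonged to a window or cluster when it overlapped it by at least 1 bp.

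To show what kind of DNA lay under the peaks, the 151 bp of the hg38 reference centred on peak summits are given for each cluster’s top SS18::SSX peak by −log10 q with DMSO, for SS18::SSX peaks called with MS67, and for WDR5 peaks that the results below return to. All are written 5′ to 3′ on the plus strand, in lower case with each CpG in capitals.
SS18::SSX with DMSO, HOXA3 coding exon, chr7:27108035-27108185, 8 CpG: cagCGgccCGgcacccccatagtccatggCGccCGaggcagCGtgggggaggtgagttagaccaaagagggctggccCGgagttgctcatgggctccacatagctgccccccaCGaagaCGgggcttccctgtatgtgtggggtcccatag
SS18::SSX with DMSO, LINC02086 intron in HOXB, chr17:48678632-48678782, 5 CpG: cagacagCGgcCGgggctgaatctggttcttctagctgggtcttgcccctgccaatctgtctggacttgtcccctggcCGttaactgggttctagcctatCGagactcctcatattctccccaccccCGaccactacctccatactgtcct
SS18::SSX with DMSO, HOXC4 intron, chr12:54051542-54051692, 1 CpG: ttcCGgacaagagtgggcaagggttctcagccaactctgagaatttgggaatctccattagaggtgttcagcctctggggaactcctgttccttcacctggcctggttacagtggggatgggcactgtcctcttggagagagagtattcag
SS18::SSX with DMSO, HOXD10 promoter, chr2:176116208-176116358, 9 CpG: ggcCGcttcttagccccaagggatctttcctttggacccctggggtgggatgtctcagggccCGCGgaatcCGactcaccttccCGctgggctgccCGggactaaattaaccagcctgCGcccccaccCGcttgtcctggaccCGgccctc
SS18::SSX with MS67, HOXA3 intron, chr7:27109824-27109974, 0 CpG: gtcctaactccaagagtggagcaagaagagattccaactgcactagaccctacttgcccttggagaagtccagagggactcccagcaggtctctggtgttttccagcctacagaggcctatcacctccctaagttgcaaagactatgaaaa
SS18::SSX with MS67, HOXA4 and HOXA-AS3, chr7:27129698-27129848, 4 CpG: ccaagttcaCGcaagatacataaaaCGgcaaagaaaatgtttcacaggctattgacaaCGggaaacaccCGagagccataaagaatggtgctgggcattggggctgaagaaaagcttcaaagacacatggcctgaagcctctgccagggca
WDR5 with DMSO, HOXA13 coding exon, chr7:27199355-27199505, 20 CpG: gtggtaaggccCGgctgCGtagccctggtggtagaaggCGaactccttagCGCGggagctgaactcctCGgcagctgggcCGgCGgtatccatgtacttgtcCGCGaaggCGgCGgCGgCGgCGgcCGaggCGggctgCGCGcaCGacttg
WDR5 with DMSO, LINC02086 intron in HOXB, chr17:48678243-48678393, 9 CpG: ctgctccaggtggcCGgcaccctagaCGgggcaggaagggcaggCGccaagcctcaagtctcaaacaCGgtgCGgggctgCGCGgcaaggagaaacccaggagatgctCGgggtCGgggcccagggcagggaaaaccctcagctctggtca

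With DMSO, SS18::SSX peaks were concentrated in HOXA. The HOXA cluster held 34 SS18::SSX peaks, against 8 in HOXB, 6 in HOXC and 10 in HOXD, which makes 58 in the 4 clusters. With MS67, HOXA held 3 SS18::SSX peaks and HOXB, HOXC and HOXD held 0 each. A count of 0 allows an upper limit of 3.69 peaks in a cluster at this confidence level. WDR5 peaks were spread more evenly, with 6 in HOXA, 8 in HOXB, 10 in HOXC and 7 in HOXD with DMSO (31 in all). With MS67, the WDR5 list had 1 peak in HOXA, 4 in HOXB, 2 in HOXC and 1 in HOXD (8 in all).

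Per length, HOXA stood apart for SS18::SSX. Its density with DMSO was 34.1 peaks per 100 kb (23.6 to 47.6), compared with 0.490 over the whole genome, a ratio of 69.5. HOXD followed with 10.2 per 100 kb (4.88 to 18.7), then HOXC with 5.12 (1.88 to 11.1) and HOXB with 4.00 (1.72 to 7.87). The intervals of HOXB, HOXC and HOXD overlapped, and that of HOXA lay above all of them. Of 30894 tiles of 100 kb, 7 held at least as many SS18::SSX peaks as the HOXA density, and the richest tile held 52. SS18::SSX peaks covered 12.7% of HOXA, 3.26% of HOXD, 1.17% of HOXC and 0.931% of HOXB, or 19076 bp (3.70%) of the 4 clusters, against 0.148% of the genome. With MS67 they covered 912 bp, all of it in HOXA (0.914% of that cluster). At the study’s stricter standard for peaks (−log10 q above 3 and fold above 3), 25 SS18::SSX peaks remained in the clusters with DMSO, 13 of them in HOXA, and 0 with MS67. The whole SS18::SSX list with DMSO went from 15141 to 8277 peaks.

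**Figure D1:**
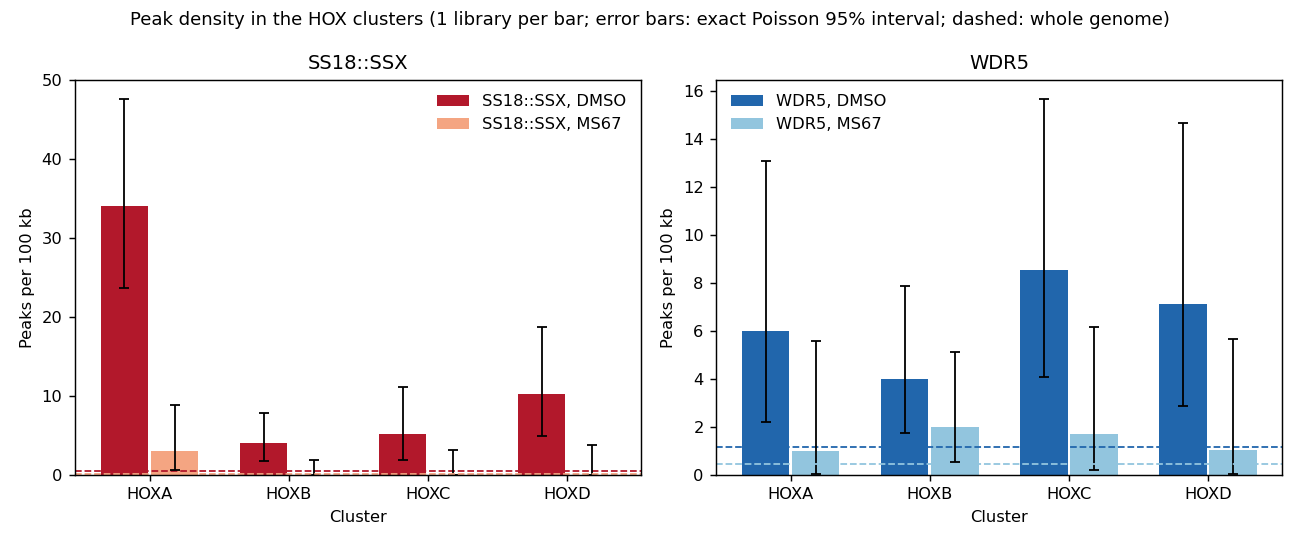
Peaks per 100 kb (y axis) in the HOXA, HOXB, HOXC and HOXD clusters (x axis), with SS18::SSX on the left and WDR5 on the right; dark bars are DMSO, light bars MS67, each bar is 1 library, error bars are exact Poisson 95% intervals, and dashed lines are the density over the whole genome. The SS18::SSX bar of HOXA with DMSO reaches 34.1 and no other SS18::SSX bar passes 10.2, whereas the WDR5 bars with DMSO lie between 4.00 and 8.53.

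The WDR5 density with DMSO was 8.53 peaks per 100 kb in HOXC (4.09 to 15.7), 7.13 in HOXD (2.87 to 14.7), 6.02 in HOXA (2.21 to 13.1) and 4.00 in HOXB (1.72 to 7.87). These 4 values had overlapping intervals, so the clusters could not be ranked for WDR5. All of them were above the 1.15 per 100 kb of the whole genome. WDR5 peaks covered 10038 bp (1.95%) of the clusters with DMSO and 2327 bp (0.452%) with MS67, against 0.446% and 0.131% of the genome. At the stricter standard (for WDR5, fold above 6), 3 of the 31 WDR5 peaks remained with DMSO and 0 with MS67. The whole WDR5 list with DMSO went from 35605 to 6362 peaks.

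Counted by gene, 26 of the 38 HOX genes (68.4%, 51.3 to 82.5) had an SS18::SSX peak in their window with DMSO. The background for this count was 28.7% of all protein-coding genes. WDR5 peaks with DMSO were found at 28 HOX genes (73.7%, 56.9 to 86.6), beside a background of 71.7%, so the share for WDR5 was near that of all genes. This count depended on the threshold for peaks and was 0 at the study’s stricter standard and 3 at −log10 q above 5, whereas that for SS18::SSX was 23 at both. With MS67, 4 HOX genes (10.5%, 2.94 to 24.8; background 3.06%) had an SS18::SSX peak, and 13 (34.2%, 19.6 to 51.4; background 50%) had a WDR5 peak. HOX windows were shorter than others, with a median of 14218.5 bp compared with 37471 bp over all protein-coding genes. The windows also overlapped each other, and 41 of the 63 SS18::SSX peaks found in them with DMSO counted for more than 1 gene. In the gene body alone, 17 HOX genes had an SS18::SSX peak and 13 a WDR5 peak with DMSO. Both proteins had a peak at 22 HOX genes (57.9%) with DMSO, beside 27.0% of all protein-coding genes. Among genes with an SS18::SSX peak, WDR5 was also found at 22 of 26 HOX genes, beside 5405 of 5758 protein-coding genes, so sharing was not more frequent at HOX genes. No peak in any of the 4 lists was found at 5 genes, HOXB2, HOXB5, HOXC8, HOXC9 and HOXD4 (13.2%, beside 24.3%).

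**Figure D2:**
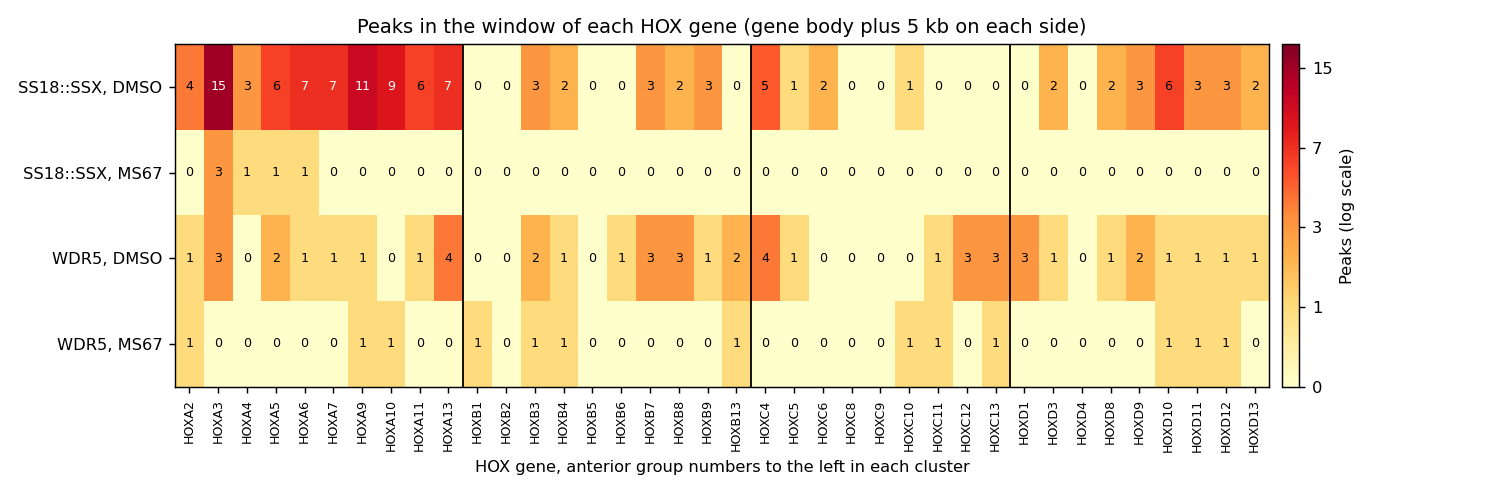
Number of peaks in the window of each of the 38 HOX genes (columns, by cluster and group number, low numbers to the left) in the 4 libraries (rows); darker colour means more peaks, on a log scale, and the count is written in each cell. All 10 HOXA genes have at least 3 SS18::SSX peaks with DMSO, and only HOXA3, HOXA4, HOXA5 and HOXA6 have any with MS67.

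All 10 HOXA genes had SS18::SSX peaks with DMSO. HOXA3, which acts in the formation of the thymus and parathyroid and has the longest window of the HOXA genes, had 15. HOXA9, a partner of MEIS1 in blood progenitors and leukemia, had 11, and HOXA10, which patterns the uterus, had 9. HOXA6, HOXA7 and HOXA13 had 7 each, HOXA5 and HOXA11 had 6 each, HOXA2 had 4 and HOXA4 had 3. HOXA13 acts in the digits and the genital tract, HOXA11 in the forearm, HOXA5 in the lung and HOXA2 in the hindbrain. The 4 peaks counted for HOXA2 lay outside its body, over the neighbouring noncoding gene HOTAIRM1.

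The HOXA peak of highest −log10 q (14.1) was chr7:27107960-27108380, in the coding sequence of HOXA3, with 57 fragments at its summit and a fold enrichment of 4.17 over its local background. The next, at chr7:27130973-27131440, covered the HOXA4 promoter with 41 fragments, a fold of 5.45 and a −log10 q of 14.0. The next after it, chr7:27166197-27166892, lay in an intron of HOXA9 with 71 fragments, a fold of 3.41 and a −log10 q of 13.3. No SS18::SSX peak with MS67 and no WDR5 peak overlapped any of these 3. The tallest summit of the cluster, with 78 fragments, was chr7:27155096-27155520 within HOXA7. By place, 16 of the 34 HOXA peaks were at promoters, 13 in introns, 2 between genes, and 1 each in a coding exon, a UTR and a noncoding exon. Promoters were counted from 1000 bp before to 100 bp after any annotated start site, and those of the antisense genes HOXA-AS2, HOXA-AS3, HOXA10-AS and HOTTIP were among them. The promoter share of the whole SS18::SSX list was not computed.

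**Figure D3:**
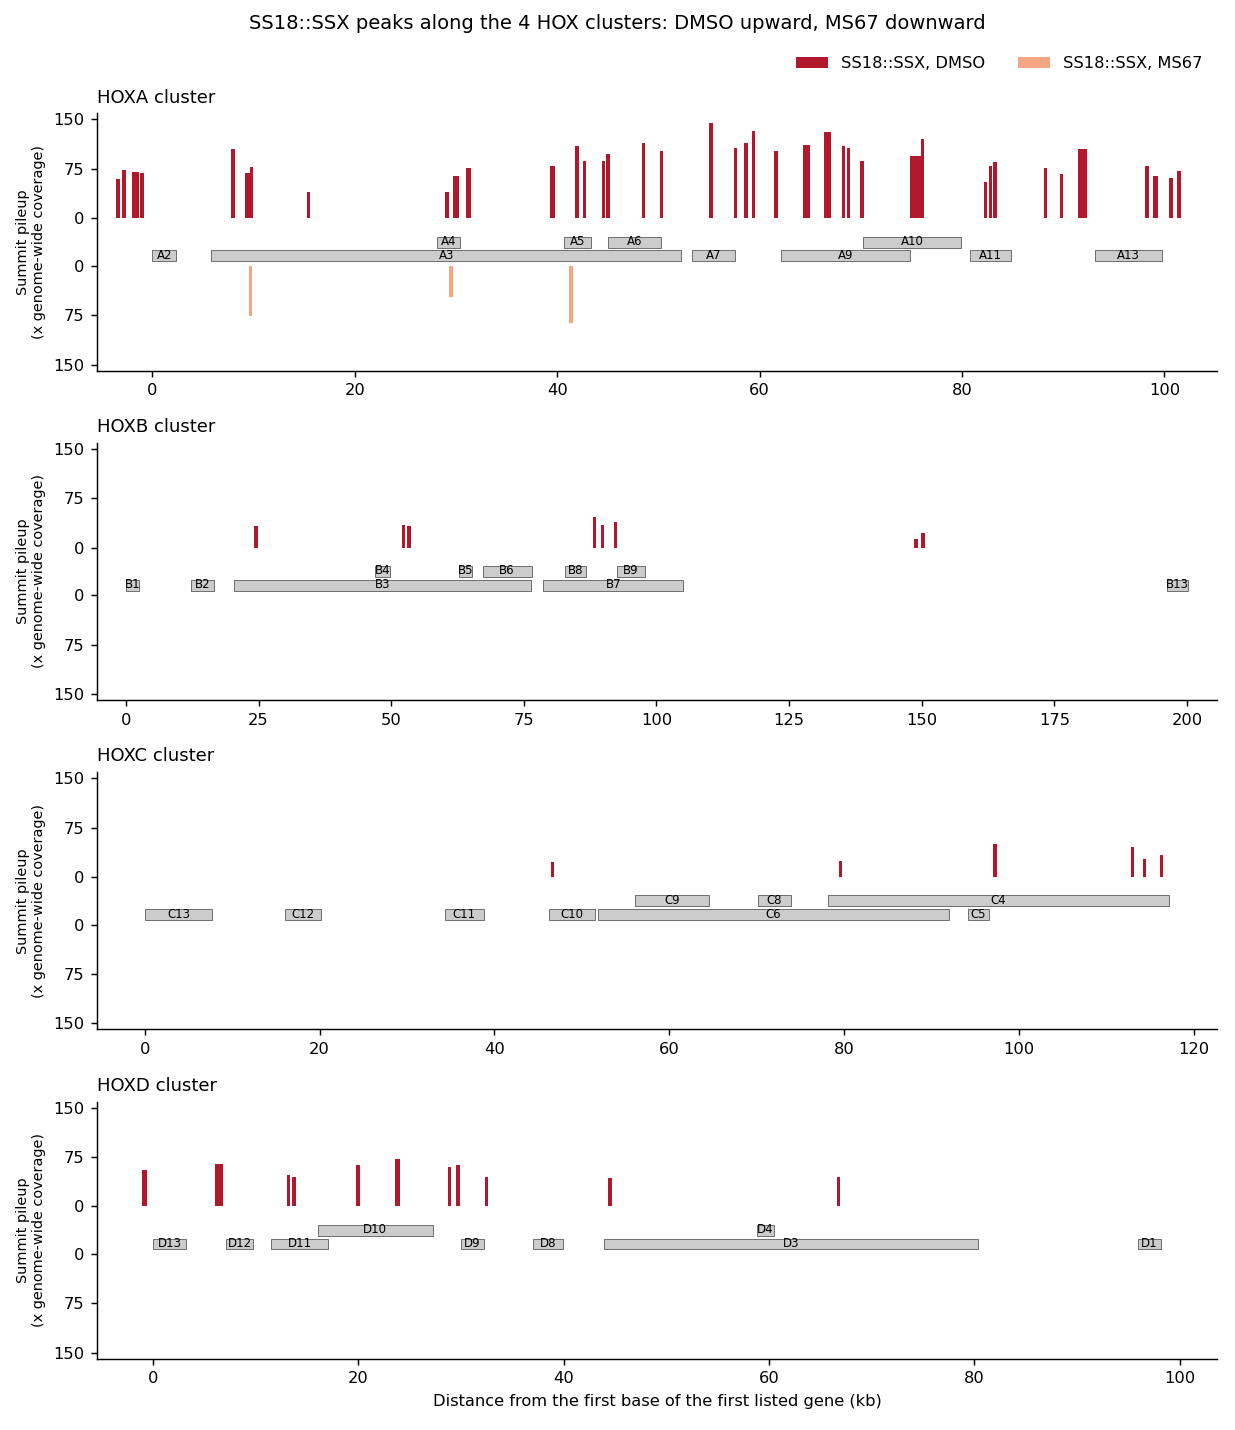
SS18::SSX peaks along the 4 clusters: x axis, kb from the first base of the first listed gene; y axis, fragments at the summit divided by genome-wide coverage, with DMSO drawn upward and MS67 downward; boxes are the listed genes, labelled without the prefix HOX. With DMSO, HOXA holds 34 peaks with heights up to 144, and the MS67 side holds 3 peaks, all in HOXA.

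In HOXD, SS18::SSX peaks with DMSO lay mainly at the end that holds the limb genes. HOXD10, which acts in motor neurons of the hindlimb, had 6 peaks. HOXD11 and HOXD12, limb genes, and HOXD9 had 3 each. HOXD3, HOXD8 and HOXD13 (the digit gene) had 2 each, and HOXD1 and HOXD4 had 0. The HOXD peak of highest −log10 q (8.03) was chr2:176115995-176116453 at a HOXD10 promoter, with 39 fragments at the summit and a fold of 3.71.

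In HOXC, HOXC4 had 5 SS18::SSX peaks with DMSO, HOXC6 had 2, HOXC5 and HOXC10 had 1 each, and the windows of HOXC8, HOXC9, HOXC11, HOXC12 and HOXC13 held 0. The strongest HOXC peak, chr12:54051532-54051930, lay in an intron of HOXC4 with 25 fragments, a fold of 5.33 and a −log10 q of 8.46. In HOXB, HOXB3, HOXB7 and HOXB9 had 3 peaks each and HOXB4, known for the expansion of blood stem cells, and HOXB8, which holds back myeloid differentiation, had 2 each. HOXB1, HOXB2, HOXB5, HOXB6 and HOXB13, the prostate gene, had 0. Of the 8 HOXB peaks, 2 were in the 98404 bp between HOXB9 and HOXB13, inside the noncoding gene LINC02086 and outside every HOX window. One of them, chr17:48678667-48678856, was the strongest of HOXB, with 12 fragments, a fold of 6.72 and a −log10 q of 6.45. No HOXB peak lay at a promoter, compared with 2 of 6 in HOXC and 4 of 10 in HOXD.

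The shape of the HOXA signal differed from that of a usual peak in the list. Each peak’s fold and p-value together fix the number of fragments at its summit and the local background. That background was taken to be averaged over 10 kb around the peak, which is inferred because the options of the peak caller are not given. If no control library was used, fragments of neighbouring peaks enter it, so a dense cluster of peaks raises its own background. The background was divided by the genome-wide coverage of the library, so that 1 means no more fragments than elsewhere. For SS18::SSX with DMSO, the 34 HOXA peaks had a median local background of 34.0 (12.4 to 49.3), compared with 5.72 over the whole list. All 34 lay above the list median and 15 above its 95th percentile of 35.8. Peaks outside HOXA but within 1 Mb of it had a median of 12.1 (n = 33), and those of all of chromosome 7 a median of 9.31. The background was highest at the HOXA7 peak with the tallest summit (49.3) and lowest at the HOXA4 promoter (12.4). The median HOXA summit held 49 fragments against 16 in the list, yet the median fold over the local background was 2.80 against 3.99, and 3 of the 34 HOXA peaks had a fold above the list median.

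The other clusters followed in the order HOXD, HOXB, HOXC for SS18::SSX, with median local backgrounds of 17.0 (7.19 to 19.9), 9.55 (1.73 to 12.2) and 7.06 (4.90 to 10.2). The ranges of HOXB and HOXC overlapped each other, and HOXD overlapped both at its low end. For WDR5 with DMSO, the median was 14.6 in HOXC (9.30 to 16.0), 9.85 in HOXA (5.54 to 19.1), 9.46 in HOXB (at most 18.4) and 8.59 in HOXD (6.61 to 16.1), compared with 4.91 in the whole WDR5 list. These ranges overlapped, so the clusters could not be ordered by the background of WDR5.

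**Figure D4:**
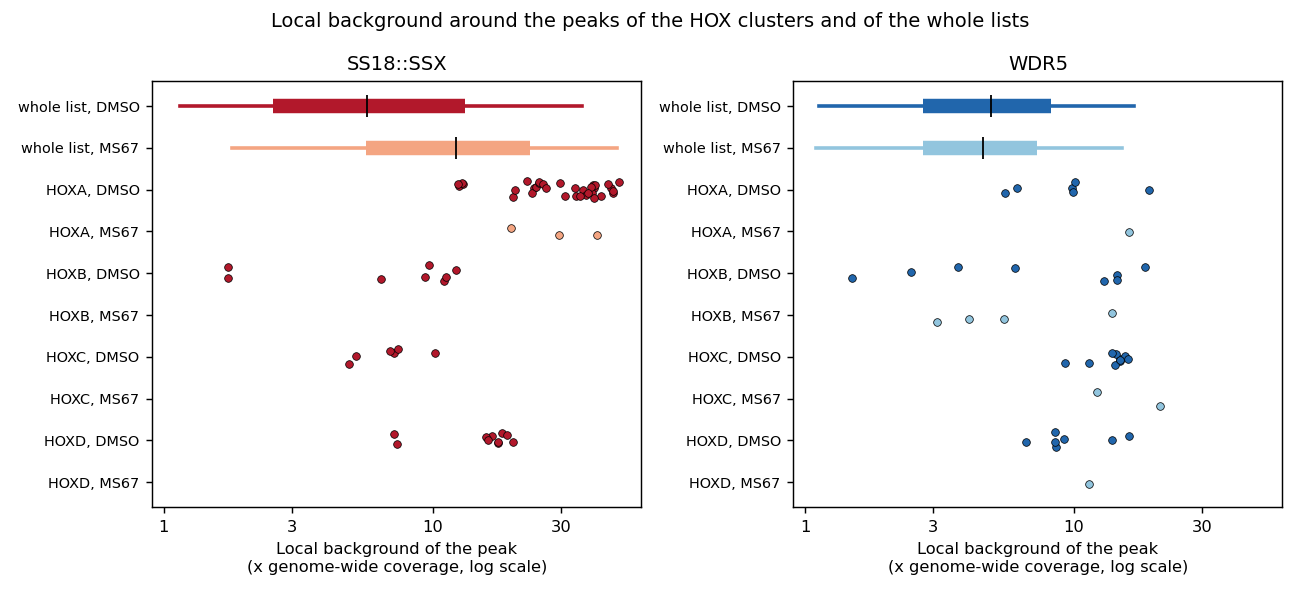
Local background of each peak divided by genome-wide coverage (x axis, log scale) for SS18::SSX (left) and WDR5 (right), by cluster and treatment (y axis, points spread vertically for visibility); for the whole lists, thick bars span the 25th to 75th percentile, thin bars the 5th to 95th, and the black tick is the median. SS18::SSX peaks of HOXA with DMSO lie between 12.4 and 49.3, all to the right of the list median of 5.72.

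With MS67, nearly all SS18::SSX peaks of the clusters were gone from the list. Of the 58 DMSO peaks, 56 (96.6%, 88.1 to 99.6) had no overlapping MS67 peak, beside 94.2% of the whole SS18::SSX list. The share lost in the clusters was thus near that of the list. With the DMSO list shortened to the length of the MS67 list by −log10 q, 10 of 11 HOX peaks (90.9%, 58.7 to 99.8) were lost, beside 69.4% of the list. The lost peaks were 32 of 34 in HOXA, 8 of 8 in HOXB, 6 of 6 in HOXC and 10 of 10 in HOXD. Of the 26 HOX genes with an SS18::SSX peak in DMSO, 22 (84.6%, 65.1 to 95.6; background 90.0%) had none with MS67, an interval that includes the background. The genome-wide coverage, taken from the lowest background in each list, was 0.737 fragments per bp with MS67 and 0.541 with DMSO. The estimated mean fragment was also longer with MS67 (197.2 bp against 136.5 bp). Coverage therefore does not show which SS18::SSX library held more fragments. These lists were not scaled to the spike-in, so they do not give the amount of bound SS18::SSX.

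The 3 SS18::SSX peaks called with MS67 were all inside HOXA. The first, chr7:27109776-27110092 in an intron of HOXA3 and of HOXA-AS2, had 56 fragments at its summit and overlapped a DMSO peak with 42. The next, chr7:27129646-27129848 at the HOXA-AS3 promoter and inside HOXA4, had 35 fragments, and the DMSO peak it overlapped also had 35. The last, chr7:27141338-27141729 in a UTR of HOXA5, had 64 fragments and overlapped no DMSO peak, the nearest being the 59-fragment peak at chr7:27142004-27142433. The 151 bp at the first MS67 summit held 0 CpG and those at the other printed one held 4, and the 3 MS67 peaks had a median GC content of 46.8% compared with 61.7% for the HOXA peaks with DMSO.

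The local background could be compared between treatments only at these 3 places, which were picked out by having a peak with MS67, so the values are a description only. The DMSO value at HOXA5 came from the nearest DMSO peak, 628 bp away by summit. The local background relative to genome-wide coverage was 22.5 with DMSO and 29.4 with MS67 at the HOXA3 peak. It was 12.8 and 19.6 at the HOXA4 peak, and 33.9 and 40.9 at the HOXA5 peak. The ratios of MS67 to DMSO were 1.31 and 1.53 at the 2 overlapping pairs, and 1.21 at HOXA5. The 859 overlapping SS18::SSX pairs of the whole lists had a median of 0.846 (25th to 75th percentile 0.699 to 1.07). Relative to coverage the summits were lower with MS67, with ratios of 0.978, 0.734 and 0.796 (whole-list median 0.692, 0.571 to 0.838). Elsewhere in the cluster the MS67 list has no value. Within 5 kb of the 3 MS67 peaks lay 11 DMSO peaks, and 10 of them had summits that, scaled to the MS67 coverage, exceeded the 33 to 56 fragments needed there to pass the weakest p-value of the MS67 list, while 9 of the 11 had no MS67 peak.

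WDR5 peaks of the clusters were also mostly absent with MS67. Of 31 peaks, 27 (87.1%, 70.2 to 96.4) had no overlapping MS67 peak, an interval that includes the 75.0% of the whole WDR5 list. By gene, 18 of the 28 HOX windows with a WDR5 peak in DMSO (64.3%, 44.1 to 81.4) had none with MS67, beside 33.9% of the protein-coding genes with such a peak. This comparison was not adjusted for window length, and HOX windows were shorter (median 14218.5 bp against 37471 bp). A WDR5 peak with MS67 only was found in 3 HOX windows, beside 524 windows of all protein-coding genes. All 6 HOXA peaks and all 7 HOXD peaks were lost, as were 5 of 8 in HOXB and 9 of 10 in HOXC. The WDR5 library with MS67 was shallower, with a coverage of 0.168 fragments per bp against 0.368 with DMSO. Scaled to that coverage, 7 of the 31 HOX peaks would still have passed, and 6 of these 7 (85.7%, 42.1 to 99.6) were lost, compared with 62.2% of the list treated the same way.

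The WDR5 peaks of highest −log10 q in the clusters were not at HOX promoters. chr17:48678122-48678535 (−log10 q 9.11, 14 fragments, fold 7.85) and chr17:48671769-48672054 (8.19, 11 fragments, fold 7.74) both lay in LINC02086 introns between HOXB9 and HOXB13. chr7:27199243-27199565 (7.36, 22 fragments, fold 4.96) lay in the coding sequence of HOXA13, inside the noncoding gene HOTTIP, whose RNA is known to bind WDR5. Its 151 bp held 20 CpG, the most of those printed. HOXA13 had 4 WDR5 peaks with DMSO and 0 with MS67, and HOXC4 also had 4 and 0. HOXC12, HOXC13 (the hair and nail gene), HOXB7, HOXB8, HOXA3 and HOXD1 had 3 each with DMSO. At the other end, HOXA4, HOXA10, HOXB1, HOXB2, HOXB5, HOXC6, HOXC8, HOXC9, HOXC10 and HOXD4 had no WDR5 peak with DMSO. In HOXD, 6 of the 7 WDR5 peaks lay at promoters, compared with 2 of 6 in HOXA, 1 of 8 in HOXB and 1 of 10 in HOXC. Of those 6, 3 were neighbours at HOXD1 and HAGLR, between positions 176187723 and 176189855. The promoter share of the whole WDR5 list was not computed.

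The WDR5 peaks that overlapped a DMSO peak after MS67 were 4: in an intron of HOXB3, at a LINC03057 promoter within LINC02086, in the coding sequence of HOXB13 and in an intron of HOXC13. Their summits held 16 and 13 fragments (DMSO and MS67), 14 and 9, 14 and 10, and 15 and 13. Relative to coverage the MS67 summits were 1.77, 1.40, 1.56 and 1.89 times those with DMSO, compared with a median of 1.25 (25th to 75th percentile 0.970 to 1.60) over the 9094 pairs of the whole lists. These places were picked out by having a peak in the shallower MS67 library, and the values were not scaled to the spike-in. The ratios are therefore a description only and do not show that WDR5 binding rose. The other 4 MS67 peaks had no overlapping WDR5 peak with DMSO. They lay at a HOXA9 promoter (15 fragments), in a UTR of HOXB1 (6), in an exon of HOXC-AS3 between HOXC11 and HOXC10 (13) and at a HOXD11 promoter (11).

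**Figure D5:**
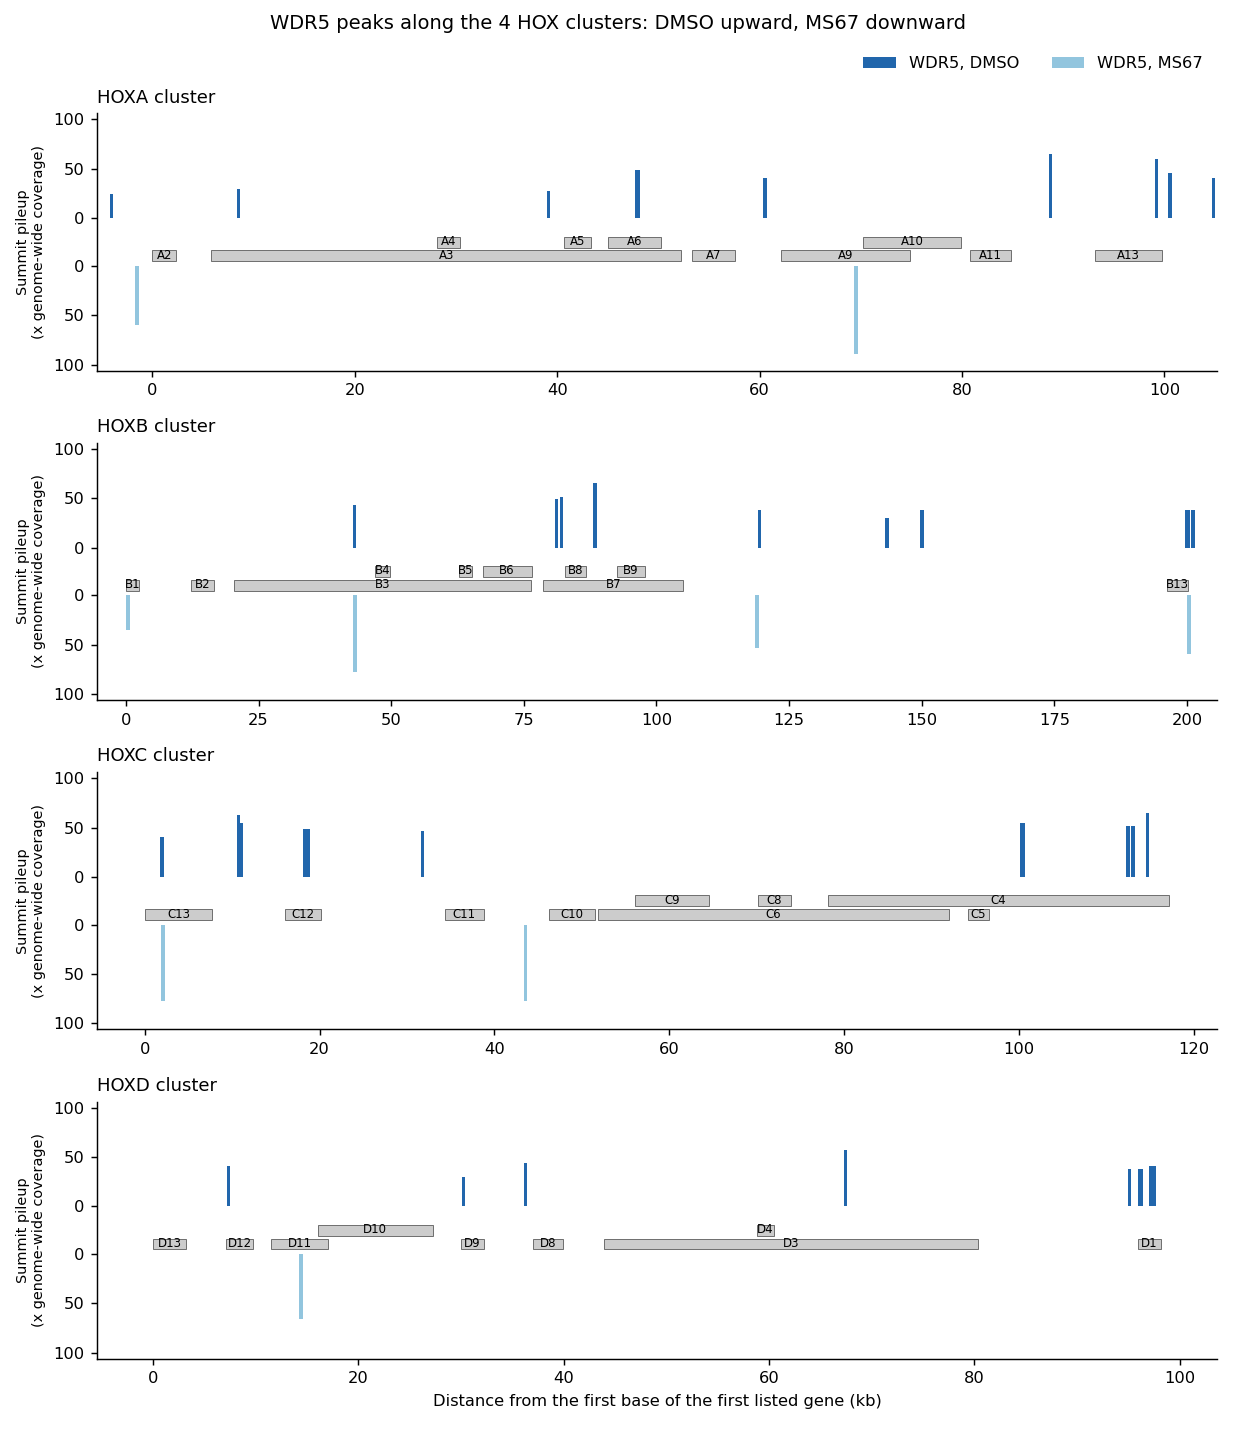
WDR5 peaks along the 4 clusters, drawn as for SS18::SSX: x axis, kb from the first base of the first listed gene; y axis, fragments at the summit divided by genome-wide coverage, DMSO upward and MS67 downward; boxes are the listed genes. The 31 cluster peaks with DMSO are spread over all 4 clusters, and the 8 with MS67 include 4 in HOXB.

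Few peaks of the clusters were shared by SS18::SSX and WDR5. Of the 58 SS18::SSX peaks with DMSO, 5 (8.62%, 2.86 to 19.0) overlapped a WDR5 peak, compared with 33.7% of the whole SS18::SSX list. From the other side, 5 of 31 WDR5 peaks (16.1%, 5.45 to 33.7) overlapped an SS18::SSX peak, beside 13.9% of the WDR5 list. The shared places were the HOXA-AS3 promoter at chr7:27139288-27139755, the HOTTIP promoter and HOXA13 at chr7:27198929-27199358, a HOXB7 intron at chr17:48616290-48616785, and an intron and a promoter of HOXC4 at chr12:54051532-54051930 and chr12:54053055-54053221. HOXD had none. WDR5 covered 50% or more of the length of 0 of the 58 peaks, beside 25.5% of the list, and 19 (32.8%, 21.0 to 46.3) had a WDR5 peak within 1 kb, beside 54.9% of the list. At the study’s stricter standard, 0 of 25 (0 to 13.7%) overlapped WDR5, an interval that includes the 8.60% of the list. The LINC02086 peaks printed above are such neighbours, since the SS18::SSX peak begins at 48678667, just past the end of the WDR5 peak at 48678535.

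The noncoding genes of the clusters have windows that overlap those of the HOX genes, so the same peaks count for both. Of 24 listed, 15 (62.5%, 40.6 to 81.2) had an SS18::SSX peak in their window with DMSO and 2 (HOXA-AS2 and HOXA-AS3, with 2 peaks each) with MS67. Their WDR5 counts were 11 with DMSO and 6 with MS67. HOXA-AS3 had 14 SS18::SSX peaks with DMSO, HOXA-AS2 had 8, HOXA10-AS had 7, HOXA11-AS had 6, HOTTIP had 5 and HOTAIRM1 had 4. HOTAIR, the HOXC noncoding RNA known to work with Polycomb, had 0 SS18::SSX peaks and 2 WDR5 peaks with DMSO.

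The clusters also hold microRNA genes, whose products repress HOX messages among others. Their counts are for windows of 5 kb on each side, and no SS18::SSX peak overlapped a microRNA gene itself. MIR196B, inside the body of HOXA9, had 6 SS18::SSX peaks in its window with DMSO, all also counted for HOXA9, and 0 with MS67. Its relatives MIR196A1 in HOXB and MIR196A2 in HOXC had 0 in every list. With DMSO, MIR10A in HOXB had 2 SS18::SSX peaks, MIR10B in HOXD had 0, and MIR615 in HOXC had 1. The mature sequences of RefSeq (GRCh38.p14) are shown with the seed, bases 2 to 8, in capitals. miR-196a-5p and miR-196b-5p share it, although only the window of the HOXA copy held SS18::SSX peaks.
miR-196b-5p, chr7:27169528-27169549, minus strand: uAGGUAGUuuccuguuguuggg
miR-196a-5p, chr12:53991762-53991783, plus strand: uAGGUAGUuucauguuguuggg
miR-10a-5p, chr17:48579904-48579926, minus strand: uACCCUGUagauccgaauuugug

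Other homeobox genes gave a scale for these counts. Of the 6 Iroquois genes, 6 had an SS18::SSX peak with DMSO and 1 (IRX4) with MS67. The region of IRX1, IRX2 and IRX4 on chromosome 5 held 80 SS18::SSX peaks with DMSO and 9 with MS67, at 4.64 and 0.522 per 100 kb over 1723991 bp, and 15 of the 80 overlapped a WDR5 peak. Its median local background was 18.7 over the 80 peaks with DMSO and 25.1 over the 9 with MS67, beside 5.72 and 12.2 over the whole lists. These medians come from different sets of peaks, so they do not show a change of background with MS67. This region is mostly DNA between genes, so its density is not that of its gene windows. In the window of IRX4, 9 SS18::SSX peaks with DMSO covered 20.5% of the length, compared with 21.2% in that of HOXA9. The region of IRX3, IRX5 and IRX6 held 8 with DMSO and 0 with MS67.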

How the data were processed

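The authors aligned CUT&RUN reads to hg38 and, for the spike-in, to mm10 with Bowtie2, removed duplicates with Picard and called peaks with MACS2 in each library. The deposited files give each peak’s position, its fold enrichment (a ratio of summit to local background), and its −log10 p and −log10 q as the authors’ caller wrote them. The deposited score, a rounded form of the −log10 q, was not used. The submitters’ processing notes name SAMtools 1.9, bedtools 2.28.0 and deepTools 3.3.0. Options of MACS2 and a control library are not given in the sources used here, and peak values were not scaled to the spike-in.

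The fold, (pileup + 1)/(background + 1) in MACS2, and the Poisson p-value of the same quantities were solved for whole-number pileups. They fitted 100% of peaks in every list within 0.001 in −log10 p. The lowest background was taken as genome-wide coverage, which was 0.541 (SS18::SSX, DMSO), 0.737 (SS18::SSX, MS67), 0.368 (WDR5, DMSO) and 0.168 (WDR5, MS67) fragments per bp. The lists held 15141, 1175, 35605 and 14123 peaks. Steps were tested on simulated data. Overlap meant at least 1 bp. Genes came from GENCODE 44. With 1 library per condition, no test was run. The members and the gene lists were chosen with earlier results of these data known. Named genes were those with an SS18::SSX peak, those with the most or fewest WDR5 peaks per cluster, and those at the 3 peaks of highest −log10 q in a list. Alternatives changed the peak threshold, the overlap, the window and the DMSO list. The versions were pandas 2.3.3, scipy 1.17.1, numpy 2.4.6, Python 3.11.15 and, for plots, matplotlib 3.10.9.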

Additional observations from a re-analysis of the deposited data

How the results depend on the processing

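Of 69 alternative values for 15 results, 32 stayed within 1.5 times the main count or inside the interval of the main share. Stricter peaks moved most, and the share of all protein-coding genes with a peak was not computed at the stricter thresholds. At the study’s standard (−log10 q above 3, with a minimum fold of 3 for the fusion and 6 for WDR5), the clusters held 25 SS18::SSX peaks with DMSO (10143 bp; 13 of them in HOXA) and 0 with MS67 (0 bp), and 3 WDR5 peaks with DMSO (1293 bp) and 0 with MS67 (0 bp). HOX genes with a peak were then 23 for SS18::SSX with DMSO and 0 in the other 3 lists, 100% of the SS18::SSX (25 of 25) and of the WDR5 peaks (3 of 3) were lost, beside 96.6% and 83.4% of the lists, and 0% of SS18::SSX peaks (0 of 25) overlapped WDR5, beside 8.60% of the list. At −log10 q above 5 the clusters held 30 and 0 SS18::SSX peaks (0 bp with MS67) and 6 and 0 WDR5 peaks (2274 bp and 0 bp), HOX genes with a peak were 0 for SS18::SSX with MS67, 3 for WDR5 with DMSO and 0 with MS67, 100% of either target’s peaks were lost (30 of 30 and 6 of 6), beside 95.4% and 88.7% of the lists, and 0% (0 of 30) were shared, beside 20.9%.

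The window moved gene counts, and no share of all protein-coding genes was computed for the other windows. In the gene body alone, 17 HOX genes had an SS18::SSX peak with DMSO, 13 a WDR5 peak with DMSO and 6 with MS67, and within 1 kb of a start site the counts were 17, 1 (SS18::SSX, MS67), 11 and 3. The shared part was 0% when 50% of the SS18::SSX peak had to be covered (list 25.5%), 0% with the MS67 lists (0 of 3; list 10.6%) and 32.8% within 1 kb (list 54.9%). Losses with an overlap of 50% of the DMSO peak required were 98.3% for SS18::SSX (list 97.0%) and 90.3% for WDR5 (list 87.1%). If MS67 peaks up to 1 kb away were also accepted, losses were 91.4% for SS18::SSX (list 89.7%) and 87.1% for WDR5 (list 61.0%). With DMSO lists shortened to the length of the MS67 list they were 90.9% for SS18::SSX (10 of 11; list 69.4%) and 83.3% for WDR5 (5 of 6; list 60%). With DMSO peaks scaled to the MS67 coverage they were 96.6% (56 of 58; list 94.0%) and 85.7% (6 of 7; list 62.2%). HOXA still held the most SS18::SSX peaks at both stricter standards, with 13 of 25 and 20 of 30, while HOXD held 6 at each. Intervals per cluster were not computed at these standards, so whether HOXA stayed apart from HOXD was not tested.

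No paired analysis was possible because each condition was 1 library and no test was run. The WDR5 library with MS67 had the lower coverage, and 7 of 31 HOX peaks with DMSO would pass at that coverage. The local background, inferred to span 10 kb, enters every p-value, so a broadly covered cluster needs a taller summit for a peak to be called.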

Other observations

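The homeobox partners and relatives of HOX genes outside the clusters were listed too. All 9 TALE genes (PBX, MEIS and PKNOX, cofactors that bind DNA with HOX proteins) had a WDR5 peak in their window with DMSO and 7 with MS67, whereas 5 had an SS18::SSX peak with DMSO and 1 with MS67. PBX3 had 6 SS18::SSX peaks with DMSO and 0 with MS67, and 8 WDR5 peaks with DMSO and 0 with MS67. MEIS1 had 3 and 1 SS18::SSX peaks, and 6 and 4 WDR5 peaks.

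EVX1 and EVX2, even-skipped homeobox genes that flank HOXA and HOXD, had 2 and 5 SS18::SSX peaks with DMSO, and 1 and 0 with MS67. Of the 6 ParaHox genes, the sister set of the HOX clusters, 4 had SS18::SSX peaks with DMSO and 2 with MS67. CDX2, an intestinal regulator, had 7 and 1, and PDX1, the pancreas regulator next to it on chromosome 13, had 5 and 2. CDX1 and CDX4 had none in any list.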
